A study of Mus musculus with 6 samples.

Results

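The GATA, FOXA and HNF4 genes that pattern endoderm were examined in the pylorus of adult mice with and without Sox2. The group was set by name as 8 genes, Gata4, Gata5, Gata6, Foxa1, Foxa2, Foxa3, Hnf4a and Hnf4g, and all 8 had a row among the 39179 genes of the deposited expression table. All 8 also passed the filter on low values that left 14045 genes for testing. The 6 RNA-sequencing libraries, 3 of each genotype (Sox2 WT and Sox2 KO), came from mice of a mixed C57BL/6 and 129 background. Sox2 KO mice carried a tamoxifen-activated Cre recombinase (CreER) at Rosa26, a locus active in most tissues, and were homozygous for a floxed Sox2 allele (fl/fl). The Sox2 WT group was also fl/fl but had no CreER, so an effect of CreER itself cannot be told apart from the loss of Sox2. Both groups received tamoxifen at 8 weeks of age, and stomachs were taken 2 weeks later, at 10 weeks by the series text, although the age label reads 8 weeks. RNA came from pyloric epithelium and mesenchyme after the muscle layer had been separated off. Whether each library is 1 animal is not stated in the labels, so p-values measure the spread between libraries, which may be technical. Where 3 values are listed for a group, they are in the order of replicates 1 to 3.

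GATA factors are zinc finger proteins that bind the letters GATA in DNA. FOXA factors are forkhead proteins that can bind closed chromatin and are called pioneer factors for that reason. HNF4 factors are nuclear receptors that act in absorptive and secretory epithelium. Together they mark endoderm and go on being made in adult stomach, intestine, liver and pancreas. Gata4 is associated with gastric epithelium and the proximal intestine, Foxa1 and Foxa2 with secretory and endocrine lineages, and Hnf4a and Hnf4g with digestive and lipid-handling genes. The comparison asks whether these genes differ in level once Sox2, a SOX-family factor of foregut and gastric progenitors, has been deleted.

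The genes lie apart on the mouse genome, apart from 3 that share chromosome 2 at distant positions (mm10, whole gene bodies from GENCODE). Gata4 spans chr14:63198922-63271692 and Gata5 chr2:180325133-180334699, both on the minus strand. Foxa1 spans chr12:57540628-57546916, Foxa2 chr2:148042877-148046969 and Foxa3 chr7:19013284-19023538, all on the minus strand. Hnf4a spans chr2:163506808-163572910 and Hnf4g chr3:3508030-3658052, both on the plus strand. The table gives 1 value per gene, so isoforms are not separated.

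Promoter sequence is shown for 3 genes because their windows hold letters that SOX, FOXA or GATA factors are known to bind, and the values that follow give the level of the same genes with and without Sox2. Windows are the 250 bases before an annotated start, from RefSeq on GRCm38.p6 (the build also called mm10), 5′ to 3′ on the strand of the gene. GENCODE places some starts elsewhere. The printed windows of Foxa1 and Foxa2 lie inside the gene bodies given above, and that of Hnf4a overlaps its gene body in part. These stretches may therefore be transcribed. The letters searched, on both strands, were AGATAA for GATA factors, TGTTTAC for FOXA factors, CAAAGTCCA for HNF4 factors and ACAAAG for SOX factors, and capitals mark each match. Of 32851 such windows, 9.99% held the GATA letters, 3.17% the FOXA letters, 0.384% the HNF4 letters and 16.5% the SOX letters. The window of Foxa1 lies at chr12:57546112-57546361 on the minus strand, that of 1 of the 3 Foxa2 starts at chr2:148045465-148045714 on the minus strand, and that of the upstream Hnf4a start at chr2:163506607-163506856 on the plus strand.
Foxa1: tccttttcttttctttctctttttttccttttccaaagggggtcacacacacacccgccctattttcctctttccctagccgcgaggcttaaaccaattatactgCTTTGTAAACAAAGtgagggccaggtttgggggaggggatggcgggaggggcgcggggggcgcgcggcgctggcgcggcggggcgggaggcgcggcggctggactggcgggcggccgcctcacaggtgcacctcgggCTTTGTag
Foxa2: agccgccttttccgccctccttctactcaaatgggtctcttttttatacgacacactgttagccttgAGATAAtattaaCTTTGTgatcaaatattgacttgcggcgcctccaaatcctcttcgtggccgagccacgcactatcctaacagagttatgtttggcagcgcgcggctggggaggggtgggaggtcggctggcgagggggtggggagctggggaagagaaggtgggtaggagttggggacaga
Hnf4a: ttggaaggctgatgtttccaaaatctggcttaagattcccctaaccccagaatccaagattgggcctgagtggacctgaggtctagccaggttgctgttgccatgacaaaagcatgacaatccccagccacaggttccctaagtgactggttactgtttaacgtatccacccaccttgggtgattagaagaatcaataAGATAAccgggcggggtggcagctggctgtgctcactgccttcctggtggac

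In the Foxa1 window the FOXA letters sit between SOX letters on either side and overlap both, in the run CTTTGTAAACAAAG of 14 bases. That run was found in 1 of the 32851 windows, the one of Foxa1, and was picked out after the window had been read. Another SOX match begins 8 bases before the Foxa1 start. The Foxa2 window holds a GATA match that begins 183 bases before the start and a SOX match that begins 171 bases before it. The upstream Hnf4a window holds a GATA match 52 bases before the start, and the window of the second annotated Hnf4a start, 40298 bases downstream, holds none of the 4 sets of letters. Nor do the windows of Gata5, of Foxa3 and of the other 2 Foxa2 starts. Windows were matched for 5 of the 8 genes. Gata4 and Hnf4g had none, and Gata6 was left out of the search. A match describes letters and not occupancy, since no binding was measured.

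Sox2 itself was at 11.1, 9.03 and 10.9 RPKM (reads scaled to gene length and to the reads of the library) in Sox2 WT and at 0.342, 0.21 and 0.42 RPKM in Sox2 KO. The libraries held between 20180 and 20550 genes above 0, and whole reads worked back from the RPKM summed to at least 21923203 in the library with the fewest and 32455361 in the one with the most. By Xist, from the inactive X chromosome, against the Y-linked gene Ddx3y, 2 of the 3 Sox2 WT libraries (replicates 2 and 3) and 0 of the 3 Sox2 KO libraries were female, so sex and genotype differ together. Epithelial markers were abundant, with Tff1, a peptide of gastric surface cells, between 37094 and 61772 RPKM. Of the 12 intestinal markers, 7 were under the filter on low values, among them Cdx2, the intestinal master regulator, at most at 0.792 RPKM, and Sis and Mep1a, which encode brush border enzymes, with values of 0 throughout. The other 5 were expressed: Vil1 at 52.9 to 92.2 RPKM, Fabp2 at 16.6 to 28.5, Apoa4 at 6.16 to 39.9, Alpi at 2.25 to 17.6 and Apob at 1.91 to 4.60 RPKM.

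All 8 endoderm factors were expressed in every library, and their levels differed by more between genes than between groups. Foxa1 was the highest, at 65.2 ± 1.89 RPKM (SD, n = 6), ranking 783 among the 14045 genes tested. Gata4 followed at 58.4 ± 3.63 RPKM and Hnf4a at 58.2 ± 8.84 RPKM (SD, n = 6 each). Foxa3 was at 36.0 ± 3.77, Gata6 at 35.9 ± 2.49 and Gata5 at 29.9 ± 1.88 RPKM (SD, n = 6 each). Foxa2 was lower, at 14.0 ± 2.02 RPKM, and Hnf4g lowest, at 3.99 ± 0.948 RPKM (SD, n = 6 each), from 393 to 629 reads a library. RPKM is corrected for gene length, so these levels can be set side by side within a library.

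Of the 7 pairs of neighbours in this order, 5 kept their order in every one of the 6 libraries: Foxa1 above Gata4, Hnf4a above Foxa3, Gata6 above Gata5, Gata5 above Foxa2 and Foxa2 above Hnf4g. Gata4 and Hnf4a could not be ordered, since Gata4 was higher in 3 of 6 libraries. Foxa3 was higher than Gata6 in 5 of 6 libraries, and their means differed by less than the spread of either. The neighbours come from the same means, so the order is a description and no test is given. The order of means within these 2 pairs depended on single libraries. Gata6 stood above Foxa3 when any library but Sox2 WT replicate 2 was left out, and in the Sox2 WT libraries alone. Hnf4a stood above Gata4 without Sox2 WT replicate 1, Sox2 WT replicate 2 or Sox2 KO replicate 3. Without Sox2 WT replicate 1, or without Sox2 KO replicate 3, 4 pairs kept their order in place of 5.

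**Figure D1:**
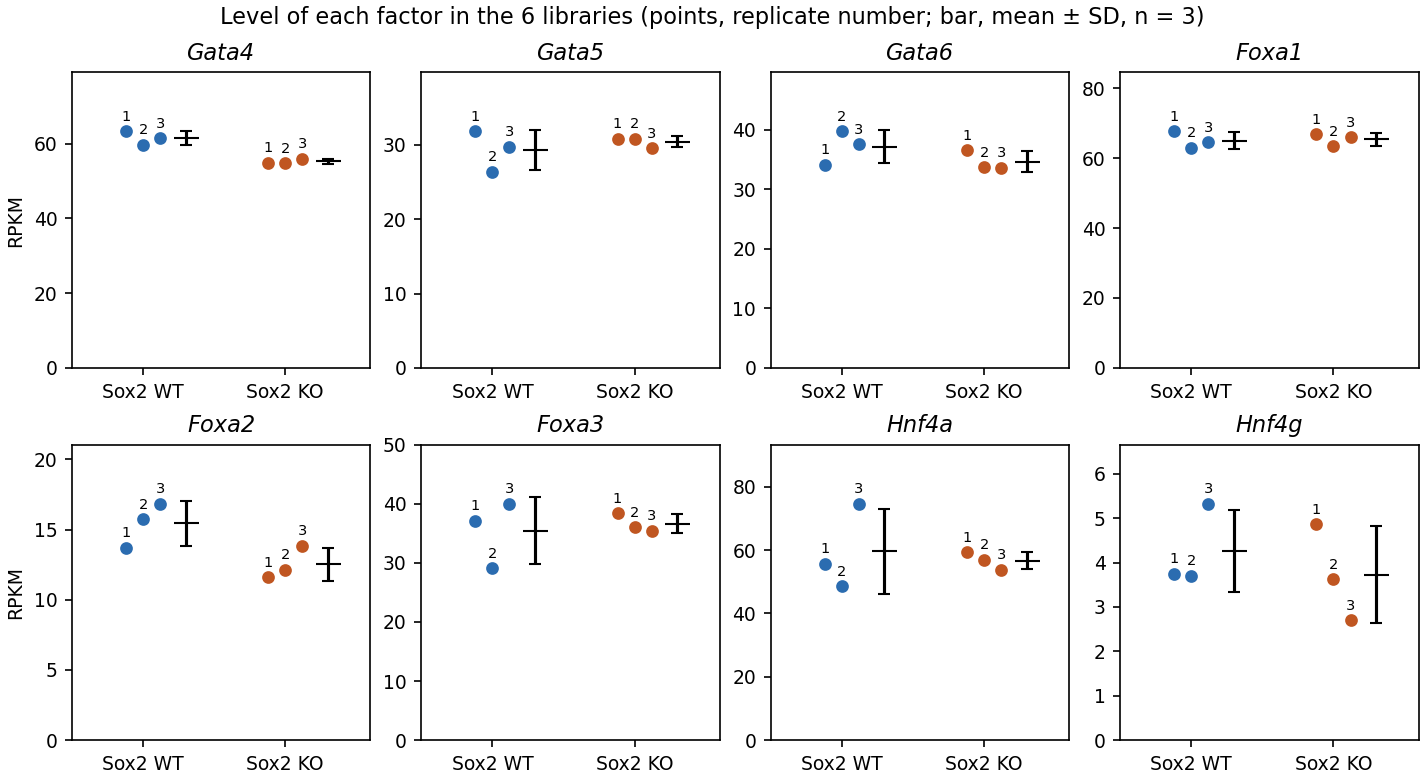
RPKM of each of the 8 factors (vertical axes, starting at 0 and scaled per gene) in the 3 Sox2 WT and 3 Sox2 KO libraries, with points numbered by replicate and bars giving mean ± SD (n = 3). Only the Gata4 points of the 2 groups are fully apart, and the widest Sox2 WT spread relative to its mean is that of Hnf4a and Hnf4g, where replicate 3 stands above the others.

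No member passed the test for a difference between Sox2 KO and Sox2 WT. Values were compared as log2(RPKM + 0.5) with limma fitted on all 14045 genes and Benjamini-Hochberg adjustment at 0.05, and 0 of the 8 were called, beside 0.0285% of all genes tested. At an unadjusted limma p under 0.05 there was 1 of the 8, Foxa2, beside 3.15% of all genes, and limma-voom on whole reads also gave 0 calls and 1 at an unadjusted p under 0.05. The 3 Sox2 KO values lay below the 3 Sox2 WT values for 1 member, Gata4, beside 2.99% of all genes that lay apart in that direction, and above them for 0 members, beside 4.09%. In either direction the groups lay apart for 1 of the 8, beside 7.08% of all genes. The median log2 fold change of the 8, Sox2 KO minus Sox2 WT, was -0.07, beside 0.02 for all genes tested. With 3 libraries against 3, an exact permutation test cannot give a p below 0.1. In whole tissue, fewer cells of a type and less RNA per cell cannot be told apart.

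**Figure D2:**
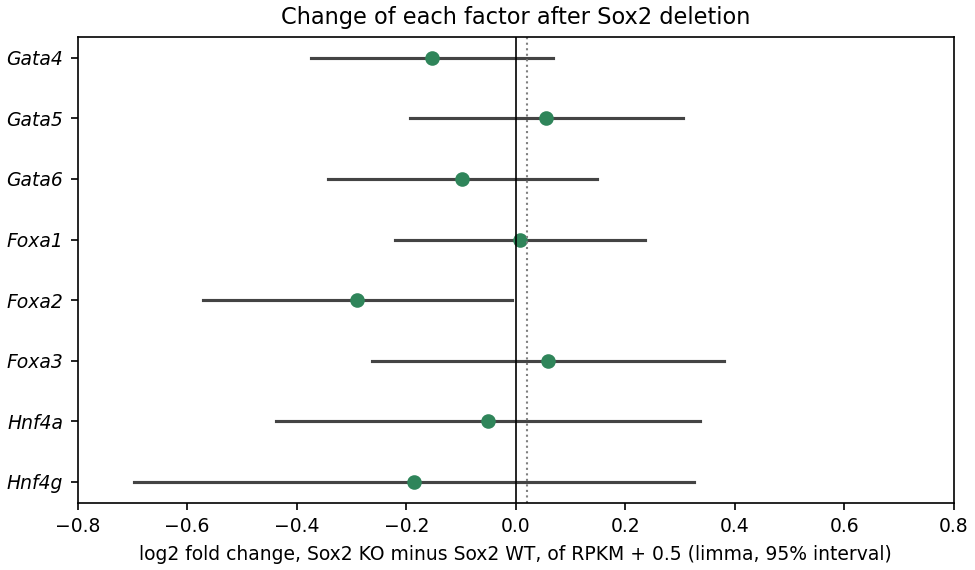
Log2 fold change of each factor, Sox2 KO minus Sox2 WT, of RPKM + 0.5 (points, horizontal axis) with the 95% interval from limma (lines, 3 libraries per group); the solid vertical line is 0 and the dotted one the median of all genes tested, 0.02. Every interval but that of Foxa2, from -0.57 to -0.01, includes 0.

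Among the GATA genes, Gata4 was the one whose groups lay apart. It was at 63.3, 59.7 and 61.5 RPKM in Sox2 WT and at 55.0, 54.8 and 56.0 RPKM in Sox2 KO. The groups did not overlap, and the means were 61.5 ± 1.81 RPKM with Sox2 and 55.3 ± 0.663 RPKM without it (SD, n = 3 each), the latter 89.9% of the former. Each value rests on 8439 to 10491 reads. The difference of -0.15 on the log2 scale did not pass limma, whose standard error of 0.0946 borrows from the spread of all genes (unadjusted p = 0.148, limma adjusted p = 1.00), and it reached the smallest exact permutation p of 0.1. The libraries of each group differed by 0.0321 on the log2 scale (pooled within-group SD), less than in all but 0.471% of the 4674 genes at a mean of 10 to 100 RPKM. With sex as a covariate, which sets the 3 Sox2 KO libraries against Sox2 WT replicate 1 alone, the log2 fold change of Gata4 was -0.19 (limma unadjusted p = 0.222).

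Gata5 and Gata6, the other GATA genes of endoderm, overlapped between the groups. Gata5 was at 31.8, 26.4 and 29.7 RPKM in Sox2 WT and at 30.8, 30.8 and 29.5 RPKM in Sox2 KO. Sox2 WT replicate 2 was its lowest library and Sox2 WT replicate 1 its highest. Its log2 fold change was 0.06, with a 95% interval from -0.19 to 0.30. The sign turned with the sex covariate (-0.06) and without Sox2 WT replicate 2 (-0.02). Gata6 was at 34.1, 39.7 and 37.6 RPKM in Sox2 WT and at 36.6, 33.7 and 33.6 RPKM in Sox2 KO. Here Sox2 WT replicate 2 was the highest library, opposite to Gata5. Its log2 fold change was -0.10, with an interval from -0.34 to 0.15. It was 0.02 with the sex covariate, -0.16 without Sox2 WT replicate 1 and -0.05 without Sox2 WT replicate 2. An antisense transcript that overlaps Gata6, 1010001N08Rik, was between 4.48 and 7.57 RPKM, and reads of the 2 strands cannot be told apart here.

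The summed RPKM of the 3 GATA genes was 129, 126 and 129 in Sox2 WT and 122, 119 and 119 in Sox2 KO. These sums did not overlap between the groups, as for Gata4, the largest part of them (exact two-sided permutation p = 0.1, the smallest possible). Gata4 made up 47.5% to 49.0% of the sum in Sox2 WT and 44.9% to 47.0% in Sox2 KO. Gata5 made up 21.0% to 24.6% and 24.8% to 25.8%, and Gata6 26.4% to 31.6% and 28.2% to 29.9%. The shares of Gata4 and of Gata5 lay apart between the groups, in opposite directions, while those of Gata6 overlapped. These shares were not tested, and the ratio of Gata4 to Gata5 was not among the ratios compared. Of single genes tested, 7.08% lay apart in either direction, and no such figure was computed for shares of a sum. Shares of 1 sum are not independent of each other. Neither GATA ratio tested differed by more than the spread between libraries: Gata4 to Gata6 was 1.665 ± 0.177 in Sox2 WT and 1.598 ± 0.0861 in Sox2 KO (SD, n = 3 each; exact permutation p = 0.6). Without Sox2 WT replicate 1 the log2 difference of that ratio turned from -0.06 to 0.02. Gata5 to Gata6 was 0.796 ± 0.133 and 0.878 ± 0.0361 (SD, n = 3 each; exact permutation p = 0.4), at a log2 difference of 0.15 that became 0.03 without Sox2 WT replicate 2 and 0.27 without Sox2 WT replicate 1.

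Among the FOXA genes, Foxa1 was the steadiest of the 8 over all libraries, with a coefficient of variation of 2.90%. It was at 67.6, 63.0 and 64.5 RPKM in Sox2 WT and at 66.8, 63.4 and 66.0 RPKM in Sox2 KO. The groups spanned almost the same range. Its log2 fold change was 0.01 with a 95% interval from -0.22 to 0.24, so that a fold between 0.858 and 1.18 remains possible; the sign turned under median-of-ratios scaling (-0.01) and quantile normalization (-0.06), and without Sox2 WT replicate 2 (-0.02). This is the gene whose promoter window, printed above, holds SOX letters in 3 places.

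Foxa2, which acts with Foxa1 in endocrine and secretory cells, had the largest log2 fold change of the 8 in the fit without covariates. It was at 13.7, 15.7 and 16.8 RPKM in Sox2 WT and at 11.6, 12.1 and 13.9 RPKM in Sox2 KO. The groups overlapped by 1 library on each side, Sox2 WT replicate 1 and Sox2 KO replicate 3. The means were 15.4 ± 1.59 and 12.5 ± 1.17 RPKM (SD, n = 3 each), at a log2 fold change of -0.29 (SE 0.121, limma unadjusted p = 0.0461, adjusted p = 1.00; exact permutation p = 0.2). That order does not hold throughout: without Sox2 KO replicate 1, Foxa2 was at -0.24 and Hnf4g at -0.37, and with the sex covariate Foxa2 was at -0.13 (limma unadjusted p = 0.454) and Gata4 at -0.19. The female libraries, Sox2 WT replicates 2 and 3, had the highest Foxa2 values. Whether sex contributed to this difference was not tested apart from that fit.

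Foxa3, the FOXA gene most associated with liver and goblet cells, varied within Sox2 WT. It was at 37.1, 29.1 and 40.0 RPKM in Sox2 WT and at 38.4, 36.0 and 35.5 RPKM in Sox2 KO. All 3 Sox2 KO values lay inside the Sox2 WT range, whose low end was replicate 2. The log2 fold change was 0.06, with an interval from -0.26 to 0.38, and it turned to -0.07 without Sox2 WT replicate 2 and to -0.02 with the sex covariate. Foxa1 made up 53.1% to 58.4% of the summed FOXA RPKM in Sox2 WT and 56.8% to 57.2% in Sox2 KO, while Foxa2 made up 11.6% to 14.6% and 9.95% to 12.01%. The Foxa1 to Foxa2 ratio was 4.25 ± 0.594 in Sox2 WT and 5.25 ± 0.493 in Sox2 KO (SD, n = 3 each; exact permutation p = 0.2). The Foxa3 to Foxa2 ratio was 2.31 ± 0.432 and 2.95 ± 0.374 (SD, n = 3 each; exact permutation p = 0.2). Without Sox2 WT replicate 2 the log2 difference of the latter fell from 0.35 to 0.20. Both ratios had an adjusted p of 0.5 over the 5 ratios compared (exact permutation tests).

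Of the HNF4 genes, Hnf4a carried nearly the whole sum. It was at 55.7, 48.7 and 74.7 RPKM in Sox2 WT and at 59.3, 57.0 and 53.8 RPKM in Sox2 KO. Sox2 WT replicates 2 and 3 were its lowest and highest libraries, so the Sox2 KO values lay within the Sox2 WT range. Its log2 fold change was -0.05 with an interval from -0.44 to 0.34. Without Sox2 WT replicate 3 it was 0.12, and with the sex covariate 0.02. The 2 annotated starts of Hnf4a give different first exons, and a value per gene does not separate them.

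Hnf4g was at 3.75, 3.71 and 5.33 RPKM in Sox2 WT and at 4.86, 3.63 and 2.70 RPKM in Sox2 KO. It spanned a range of 1.98-fold over the 6 libraries, the widest of the 8, with Sox2 WT replicate 3 the highest and Sox2 KO replicate 3 the lowest. The log2 fold change was -0.19 with an interval from -0.70 to 0.33, and 0.00 without Sox2 KO replicate 3. Hnf4a made up 92.9% to 93.7% of the summed HNF4 RPKM in Sox2 WT and 92.4% to 95.2% in Sox2 KO. The Hnf4g to Hnf4a ratio was 0.0716 ± 0.00443 in Sox2 WT and 0.0652 ± 0.0160 in Sox2 KO (SD, n = 3 each; exact permutation p = 0.5), and its log2 difference turned from -0.13 to 0.015 without Sox2 KO replicate 3. Within Sox2 WT both genes were highest in replicate 3, and their ratio there, 0.0713, lay between those of the other 2 libraries.

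**Figure D3:**
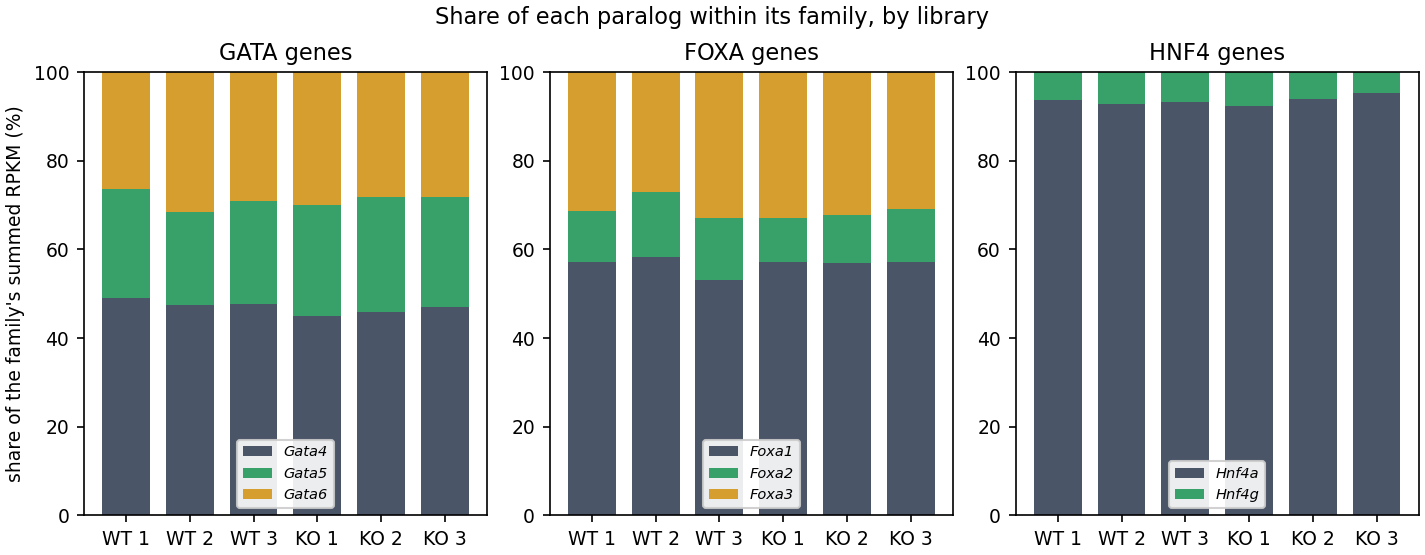
Share of each gene in the summed RPKM of its family (stacked bars, vertical axis in percent) for the 6 libraries, 3 Sox2 WT and 3 Sox2 KO, on the horizontal axis. Gata4 holds 44.9% to 49.0% of the GATA sum, Foxa1 53.1% to 58.4% of the FOXA sum and Hnf4a 92.4% to 95.2% of the HNF4 sum.

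The Sox2 WT libraries differed in the level of gland cell markers. Sox2 WT replicate 2 had the highest summed level of the 10 parietal cell markers, 3951 RPKM, and replicate 3 the lowest, 1752 RPKM, with 1912 in replicate 1 and 1961 to 2921 in Sox2 KO. The 6 chief cell markers in the table summed to 62710 RPKM in Sox2 WT replicate 2 and 12874 in replicate 3, beside 24577 to 42887 in Sox2 KO. Most of the chief cell sum was Pgc, at 49042.4 RPKM in Sox2 WT replicate 2 and 11544.5 RPKM in replicate 3. In Sox2 WT replicate 2, Gata5, Foxa1, Foxa3 and Hnf4a had their lowest values of the 6 libraries and Gata6 its highest. In replicate 3, Foxa2, Foxa3, Hnf4a and Hnf4g had their highest. The 16 epithelial markers summed to 92676 and 158247 RPKM in these libraries, against 106202 to 164630 in Sox2 KO. In every library most of that sum was Tff1, Gkn1 and Gkn2, at 61772, 34578 and 53103 RPKM in Sox2 WT replicate 3. The sum therefore need not follow the other epithelial genes of the list. None of the markers in these 3 lists was at 0 in all libraries, and their part in the values of the endoderm factors was not tested. Sox2 WT replicates 1 and 3 were near in the parietal sum, most of which was Car2, at 1101 and 1354 RPKM. Every other gene of that list was lower in replicate 3, such as Atp4a, at 307 and 135 RPKM. Hnf4a was at 55.7 and 74.7 RPKM in these libraries, and the epithelial sum of replicate 1 was 97487 RPKM. Hnf4g was at 3.75 and 3.71 RPKM in replicates 1 and 2, which differed in the parietal sum.

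The summed fibroblast and endothelial markers varied less than the gland cell and epithelial sums. The smooth muscle sum varied about as much as the epithelial sum, which was mostly Tff1, Gkn1 and Gkn2. As deviations of log2(RPKM + 0.5) from the mean of all libraries, the smooth muscle sum ran from -0.41 to 0.35. The epithelial sum ran from -0.39 to 0.44. The 11 fibroblast markers summed to 488 to 622 RPKM in Sox2 WT and 536 to 577 RPKM in Sox2 KO, and the 8 endothelial markers to 34.7 to 49.8 and 41.1 to 45.1 RPKM. The 10 smooth muscle markers summed to 464 to 741 RPKM in Sox2 WT and 436 to 696 RPKM in Sox2 KO. Whether any of the separated muscle layer remained was not tested. The 12 immune cell markers summed to 89.5 to 157 and 89.2 to 142 RPKM. The 12 intestinal markers, of which 5 passed the filter on low values, summed to 120 to 149 and 116 to 134 RPKM. All of these lists overlapped between the groups. The pancreas and liver list lay apart, at 514 to 545 RPKM in Sox2 WT and 296 to 463 RPKM in Sox2 KO, through Cela1, an elastase gene at 507 to 540 RPKM in Sox2 WT and 289 to 456 RPKM in Sox2 KO (log2 fold change -0.51, limma adjusted p = 1.00). Cpa1, a pancreatic acinar gene of that list, was listed at 0 in every library.

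**Figure D4:**
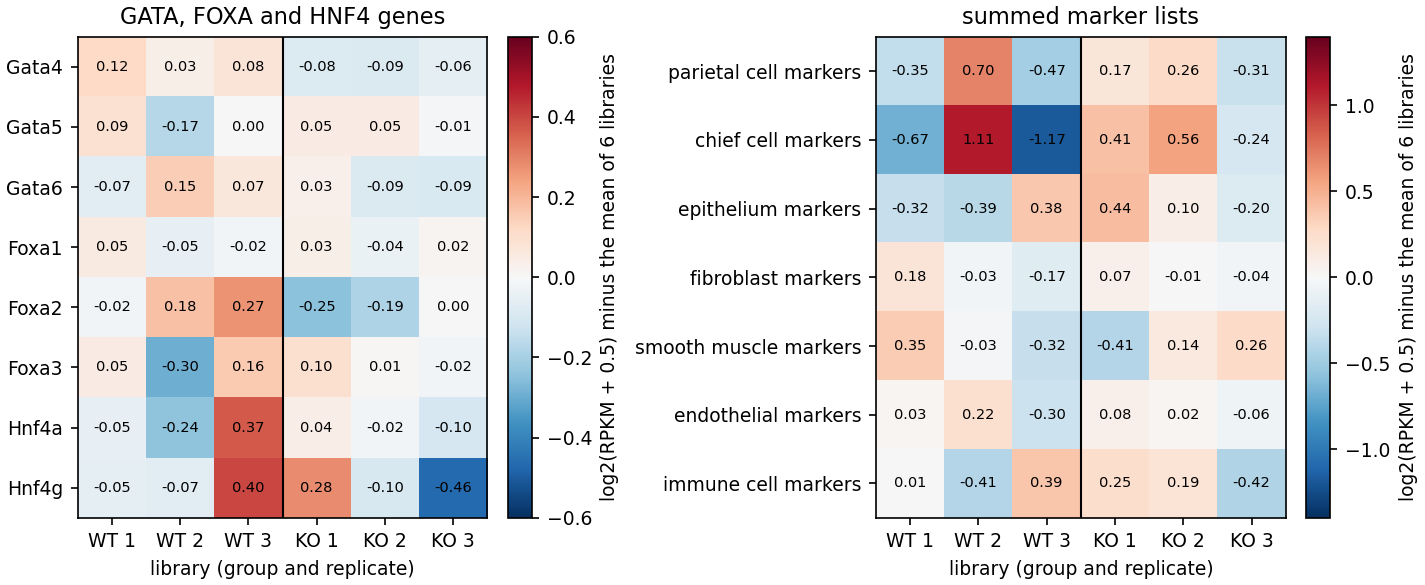
Deviation of log2(RPKM + 0.5) from the mean of the 6 libraries for the 8 factors (left) and for the summed RPKM of 7 marker lists (right), with libraries on the horizontal axis, Sox2 WT left of the line and Sox2 KO right of it; colour scales differ. Hnf4a stands at -0.24 and 0.37 in Sox2 WT replicates 2 and 3, where the parietal sum stands at 0.70 and -0.47. Gata4 runs from -0.09 to 0.12. Most of the epithelial sum is Tff1, Gkn1 and Gkn2.

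The genes whose values followed each factor most closely were found over the same 6 libraries among 2456 genes with a mean of at least 5 RPKM and a standard deviation of at least 0.2 on the log2 scale. With 6 points that share group, sex and cell mix, these correlations describe the libraries and nothing more. Nearest to Gata4 were Homer2, a synaptic scaffold gene (Pearson r = 0.986), Chgb, a granin of endocrine cells (0.984), and Scara3 (0.979). Chgb was at 154, 100 and 130 RPKM in Sox2 WT and 56.8, 68.4 and 67.5 RPKM in Sox2 KO, a far wider gap than that of Gata4. Foxa3 was followed by Vil1, the microvillus protein villin (0.989), Misp (0.983) and Tnk2 (0.976). Vil1 was at 82.2, 52.9 and 92.2 RPKM in Sox2 WT and 82.9, 78.0 and 78.6 RPKM in Sox2 KO, with its low library, Sox2 WT replicate 2, that of Foxa3. Hnf4a was followed by Tmem43 (0.999), Gas2l1 (0.995) and Smox (0.994). Tmem43 was at 26.01, 18.19 and 52.97 RPKM in Sox2 WT and 29.8, 27.7 and 22.8 RPKM in Sox2 KO.

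For the other factors the closest were Ly6d, Fgl2 and Tnc to Gata5 (0.937 to 0.908), Rbbp8, Pdgfa and Rgl3 to Gata6 (0.968 to 0.898), and Srebf1, Ptprs and Fam210b to Foxa1 (0.929 to 0.914). Foxa2 was nearest to Ly6k, Cyp2d26 and Cxcl14 (0.962 to 0.933), and Hnf4g to Fhdc1, Papd5 and Tmem2 (0.995 to 0.992). Between the factors themselves, Foxa3 went with Gata5 (0.824) and with Hnf4a (0.822), and Gata5 went against Gata6 (-0.739), each over 6 libraries.

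Relatives and partners of the 8 factors showed a similar picture. Of 6 other GATA-type and FOG genes, 2 passed the filter and 0 were called. Zfpm1, which encodes the GATA cofactor FOG1, was the higher, at 88.7, 75.7 and 84.2 RPKM in Sox2 WT and 71.2, 75.5 and 74.2 RPKM in Sox2 KO. Its groups lay apart by a narrow margin, lower in Sox2 KO (log2 fold change -0.17, SE 0.109, limma adjusted p = 1.00). Gata2, a haematopoietic GATA gene, was at 0.645 to 1.16 RPKM in all libraries, and Gata3 and Gata1 at most at 0.277 RPKM. Of 20 other forkhead genes, 14 were tested and 0 called, with a median log2 fold change of -0.11. Foxq1, a forkhead gene of surface mucous cells, was at 158, 136 and 243 RPKM in Sox2 WT and 159, 143 and 138 RPKM in Sox2 KO, high in Sox2 WT replicate 3 like Hnf4a. Foxp4 was at 21.9 to 25.9 RPKM in Sox2 WT and 22.2 to 22.8 RPKM in Sox2 KO.

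Of 23 listed nuclear receptors and other partners of HNF4, 20 were tested and 0 called, with a median of 0.05. Pparg, a lipid-sensing receptor, was at 63.1 to 92.7 RPKM in Sox2 WT and 73.6 to 94.6 RPKM in Sox2 KO. Esrra, a regulator of energy metabolism, was at 46.7, 39.4 and 43.7 RPKM in Sox2 WT and 49.7, 49.3 and 48.3 RPKM in Sox2 KO (log2 fold change 0.18, SE 0.105, limma adjusted p = 1.00). Nr1h4, the bile acid receptor, and Nr1i2, a xenobiotic receptor, also had groups apart, higher in Sox2 KO, at log2 fold changes of 0.45 and 0.26. Both were named after their values had been seen. With Esrra, 3 of the 20 tested lay apart and higher, beside 4.09% of all genes tested. Of 21 other epithelial transcription factors, 17 were tested and 0 called, with a median of 0.03. Klf4, of surface cells, was at 222 to 378 RPKM in Sox2 WT and 238 to 265 RPKM in Sox2 KO. Elf3, an epithelial ETS factor, was at 230, 197 and 261 RPKM in Sox2 WT and 322, 293 and 266 RPKM in Sox2 KO (log2 fold change 0.36, SE 0.156, limma adjusted p = 1.00). Ehf, its relative, was the other of the 17 tested with groups apart, at 0.12, beside the same 4.09% of all genes tested. Under the filter, Isx (0 to 0.0485 and 0.184 to 0.376 RPKM) and Osr2 (0.0228 to 0.0723 and 0.1001 to 0.172 RPKM) were also apart and higher in Sox2 KO; all 3 were named after their values had been seen.

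Genes known as targets of the 3 families were not called either. Of 25 HNF4 targets 21 were tested, 12 with a positive and 9 with a negative log2 fold change and a median of 0.11. Apoa1, an apolipoprotein gene, was at 103, 315 and 46.6 RPKM in Sox2 WT and 153, 179 and 101 RPKM in Sox2 KO. It was highest in Sox2 WT replicate 2 and lowest in replicate 3, opposite to Hnf4a. The parietal and chief cell sums had the same highest and lowest libraries, though not every marker in them did. Gjb1, a gap junction gene, was at 151 to 298 and 238 to 258 RPKM. Slc5a1, a glucose transporter gene named after its values had been seen, was the 1 target of this list with groups apart. It was at 1.26 to 1.64 RPKM in Sox2 WT and 1.88 to 2.20 RPKM in Sox2 KO. Over all genes tested, the groups lay apart for 7.08% in either direction. Of 18 GATA targets 11 were tested, with a median of 0.04. Atp4b, which encodes part of the acid pump, had values of 430, 1656 and 209 RPKM in Sox2 WT and 745, 815 and 423 RPKM in Sox2 KO, and Gif, the intrinsic factor gene, at 236 to 856 and 405 to 662 RPKM. Of 25 FOXA targets 18 were tested, with a median of 0.11. Tff2, a peptide of gland mucous cells, was at 9121 to 11646 RPKM in Sox2 WT and 8681 to 15663 RPKM in Sox2 KO. Pyy, a gut hormone gene, was at 9.63, 7.81 and 13.2 RPKM in Sox2 WT and 13.7, 15.0 and 16.7 RPKM in Sox2 KO, apart and higher (log2 fold change 0.57, SE 0.187, limma adjusted p = 1.00). Tat, a liver enzyme gene near the filter and likewise named afterwards, was apart and lower, at 0.620 to 0.733 and 0.257 to 0.516 RPKM. Over these lists and the marker lists together, 153 genes beside the 8 factors were tested. Limma called 0 of them, beside 0.0285% of all genes tested. An unadjusted limma p under 0.05 was found for 7, beside 3.15% of all genes tested.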

How the data were processed

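The deposited values are RPKM made by the authors, 1 per Ensembl gene (39179) and library (6); CASAVA 1.7, STAR and the build mm10 come from the submitters' processing notes, and the counting tool, annotation, strandedness and filters were not given in the labels. The 6 single-library tables equal the columns of the series table. Of rows sharing a symbol the highest was kept, and 14045 genes with a mean of at least 0.5 RPKM entered the fit on the log2(RPKM + 0.5) scale (R 4.3.3, limma 3.58.1, mean-variance trend, Benjamini-Hochberg, threshold 0.05), checked on simulated data. Ratios were compared by exact two-sided permutation tests, and the order of levels is described only. Reads are the smallest whole numbers in the ratio of the RPKM after the relative denominators of the libraries were taken from the commonest ratio among low genes. All 23538 genes above 0 came out whole within 1e-05 reads, a weak check for genes seen in few libraries; true reads may be a multiple, and counting errors cover sampling of reads alone. Gene positions and overlaps are from GENCODE mouse release 21.

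The 8 factors, the gene lists and the tests were chosen with earlier results of these data known. Named beside the 8 factors were list genes that passed or, where none passed, the 2 highest of each list, list genes with groups apart and a log2 fold change of at least 0.5 in size, and the 3 genes most alike to each factor, leaving out predicted and sex-linked genes; marker lists are given mainly as summed levels, and any other gene was named after its values had been seen. Alternatives were other pseudocounts, filters, scalings and variance models, a replicate block and each library left out. The sex covariate, male libraries alone and limma-voom on whole reads were added after the data had been seen.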

Additional observations from a re-analysis of the deposited data

How the results depend on the processing

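Across 17 alternatives, limma called 0 of the 8 factors and the sign of Gata4 and of Foxa2 held, at -0.21 to -0.13 and -0.37 to -0.13; Foxa2 had an unadjusted p under 0.05 in 10 of them. Calls among all genes numbered 4, and 1 with the replicate block, 1 with the sex covariate, 0 in male libraries alone (limma; 583 at an unadjusted p under 0.05), 8 with limma-voom on whole reads, and 1 to 8 without 1 library. With the sex covariate, and at the same value in male libraries alone, the log2 fold change turned to -0.0641 for Gata5, 0.0195 for Gata6, -0.0494 for Foxa1, -0.0201 for Foxa3 and 0.0239 for Hnf4a. Foxa1 turned to -0.0141 under median-of-ratios scaling and -0.0592 under quantile normalization. Without 1 library the values ran from -0.0169 to 0.1153 for Gata5, -0.0151 to 0.036 for Foxa1, -0.0737 to 0.1523 for Foxa3, -0.1857 to 0.1206 for Hnf4a and -0.3731 to 0.0003 for Hnf4g. The log2 difference ran from -0.1254 to 0.0243 for the Gata4 to Gata6 ratio from -0.2889 to 0.015 for Hnf4g to Hnf4a, from 0.0316 to 0.2713 for Gata5 to Gata6 and from 0.199 to 0.4675 for Foxa3 to Foxa2, and Gata6 ran from -0.156 to -0.0485. The cause was not tested.

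Same-numbered libraries of the groups deviated together at r = 0.009, 0.097 and -0.074 over genes, and replicate 3 of Sox2 WT did not correlate best with its own number, so the numbers were not taken as pairs; the replicate block left 0 of the 8 called. Sex could be set apart from genotype through 1 male Sox2 WT library alone. Read-sampling error, which rests on the smallest whole reads, was below the limma standard error of each factor.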
